A study of Mus musculus with 6 samples.

Results

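The genes for the subunits of the oxidative phosphorylation machinery were taken from the deposited gene table by symbol: symbols beginning Nduf, Uqcr or Atp5, the genes Sdha to Sdhd, Cyc1, and symbols of the Cox4 to Cox8 series. The rule used no measured value and found 93 genes of 17419. Of these, 37 encode subunits of complex I and 8 its assembly factors (Ndufaf1 to Ndufaf8), and 4, 9, 18 and 17 belong to complexes II, III, IV and V. The samples were fibroblasts of the tendon enthesis, the site where tendon attaches to bone, from SKG mice, a strain with a mutation of Zap70 that is prone to autoimmune arthritis. The labels gave 3 samples the treatment diseased and 3 the treatment un-diseased, with replicate numbers 1 to 3 in each. The titles carry NTS for the diseased and UN for the un-diseased samples, which the labels do not explain; they give no age, sex or inducing agent, and do not say whether the samples came from separate animals, so the spread behind every p-value may be technical.

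Oxidative phosphorylation takes place in the inner mitochondrial membrane. Complex I oxidises NADH and complex II oxidises succinate, both pass electrons through coenzyme Q to complex III, cytochrome c carries them on to complex IV, which reduces oxygen, and the proton gradient built by complexes I, III and IV drives ATP synthesis by complex V. Most subunits are encoded in the nucleus, and several subunits of complex IV have isoforms that are typical of muscle, brown fat, lung or testis. The comparison asks whether RNA for these subunits differed between fibroblasts of diseased and un-diseased mice; the genes encoded in mitochondrial DNA were not analysed here.

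Total counts per sample lay between 16720612 and 18290873. Fibroblast markers were high in every sample, and all 10 listed markers were tested. Their summed level was 81780, 115439 and 102743 CPM (counts scaled to a common library size) in diseased replicates 1, 2 and 3. It was 60901, 61427 and 87213 CPM in un-diseased replicates 1, 2 and 3, lower in each like-numbered pair, though the groups overlapped. Of the 10, 8 had a positive log2 fold change (median 0.44), beside 51.8% of all genes (median 0.02). The 19 measured markers of skeletal muscle summed to between 6.01 and 9.75 CPM. The 8 listed brown fat markers summed to 33.4 to 66.6 CPM in diseased and 38.0 to 193 CPM in un-diseased samples. Most of that was Dio2, at 31.5, 64.8 and 50.2 CPM in diseased and 36.0, 189 and 160 CPM in un-diseased replicates 1, 2 and 3. Ucp1, of the same list, was at most 0.208 CPM, a count of 4. Macrophage markers summed over 18 genes were higher in the diseased sample of each like-numbered pair, though the groups overlapped. The sums were 416, 608 and 235 CPM in diseased replicates 1, 2 and 3 against 134, 284 and 52.5 CPM in un-diseased replicates 1, 2 and 3. Of these markers, 17 of 17 tested had a positive log2 fold change, beside 51.8% of all genes. None passed without the replicate block, beside 1.61% of all genes higher, and 17 passed higher with it, beside 10.5%. The part of these cells in the values below was not tested, and in bulk RNA fewer cells of a type and less RNA per cell cannot be told apart.

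RNA for the respiratory chain and ATP synthase stood at close levels in diseased and un-diseased fibroblasts. After a filter on low counts 88 of the 93 genes were tested, and 0 of 88 passed an adjusted p of 0.05 (quasi-likelihood test of edgeR, adjusted by Benjamini and Hochberg), beside 3.73% of all 13264 tested genes, 1.61% higher and 2.13% lower in diseased samples. At an unadjusted p under 0.05 there were 7 of 88 (7.95%; 6 higher and 1 lower in diseased samples), beside 27.8% of all genes. DESeq2 called 1 gene, Cox4i1, lower and none higher, beside 6.65% of all genes lower, 4.79% higher and 11.4% either way there. Limma-voom called none of the 88, but its share over all genes is not given, so that count has no background to stand beside. The median log2 fold change, diseased minus un-diseased, was 0.09 with a range of -0.50 to 0.69, and that of all tested genes was 0.02. The median size of the change without its sign was 0.14, beside 0.27 over all genes.

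Summed over the 88 tested genes, the level was 3114, 2996 and 3292 CPM in diseased replicates 1, 2 and 3 and 3117, 2844 and 3146 CPM in un-diseased replicates 1, 2 and 3. The groups overlapped, with means of 3134 ± 149 and 3035 ± 167 CPM (SD, n = 3 each), and replicate 2 was the lowest of each group. The 95% confidence interval of the log2 fold change lay between -1 and 1 for 84 of 88 genes (95.5%, beside 69.6% of all genes), and between -0.5 and 0.5 for 49 (55.7%, beside 28.9%). The intervals of Ndufa3 (0.08 to 1.31), Ndufc1 (0.05 to 1.04), Ndufaf4 (-1.14 to 0.14) and Atp5k (-0.37 to 1.17) reached further. All 4 stood below the median level of the 88 genes, 23.7 CPM, and Atp5k, a small membrane subunit of ATP synthase, lay between 2.68 and 6.85 CPM in the diseased samples. Atp5k, Ndufa3, Ndufc1 and Atp5j2 are named here after their values were seen.

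**Figure D1:**
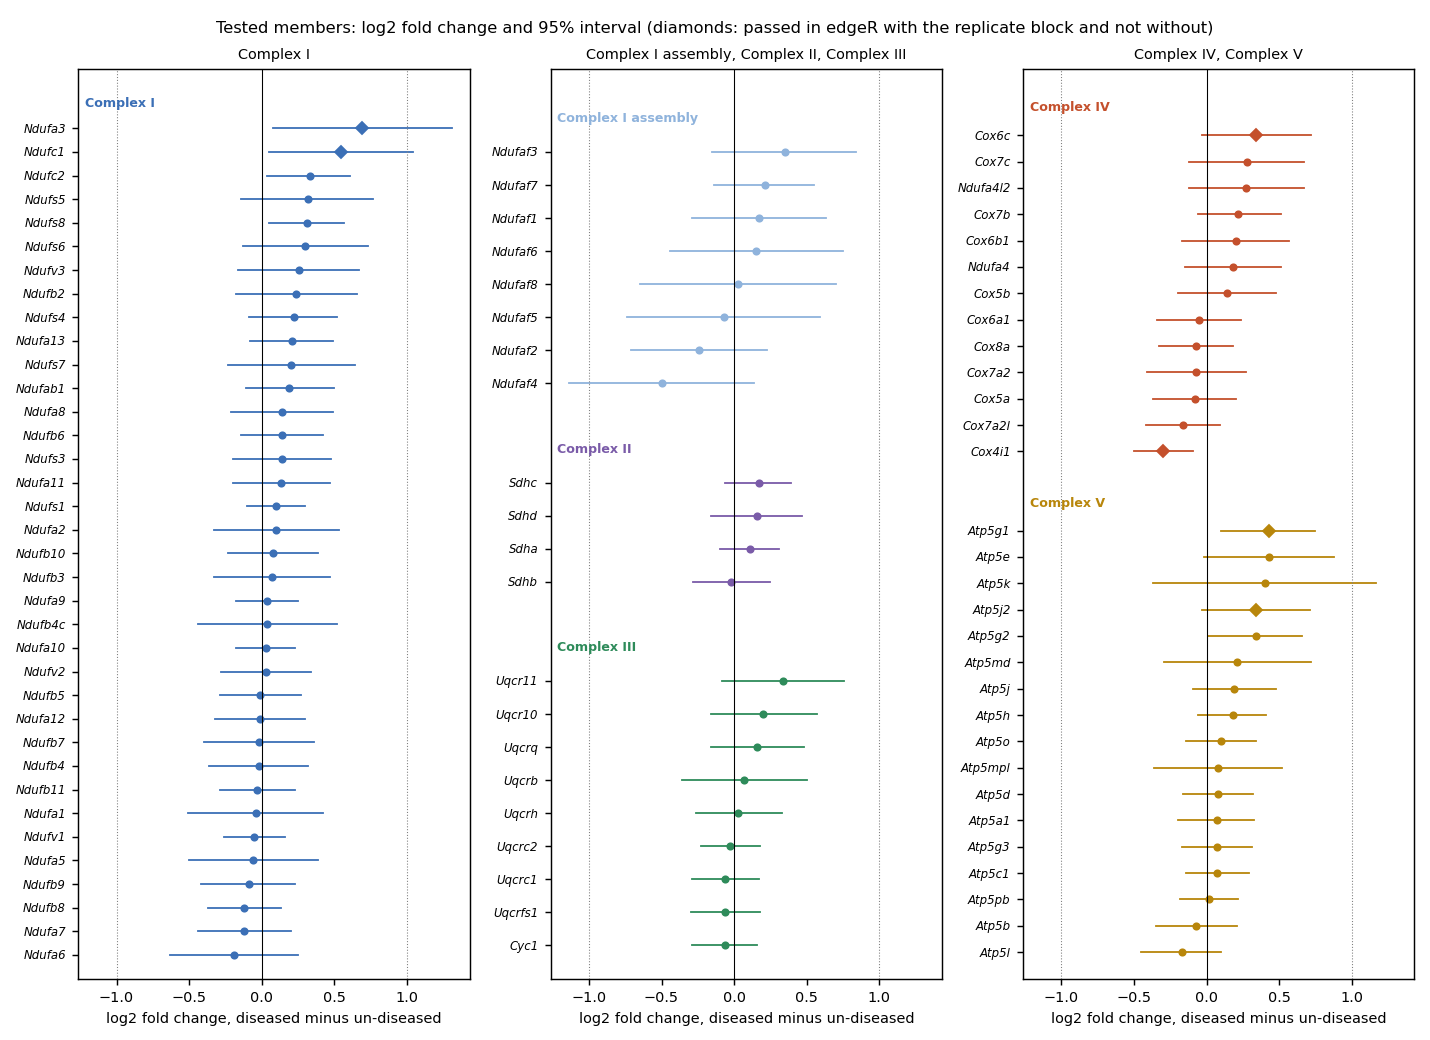
Log2 fold change (x axis, diseased minus un-diseased, edgeR) of 87 of the 88 tested genes by complex, with the 95% confidence interval as a line. Of all 88 intervals, 84 lie between -1 and 1 (dotted lines), and diamonds mark the 6 genes that passed in edgeR with the replicate number as a block and not without it.

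Samples that share a replicate number deviated together, and with that number as a block the edgeR test called 6 of the 88 genes (6.82%), beside 23.9% of all genes. Of these, 5 were higher in diseased samples (5.68%, beside 10.5%): Ndufa3, Ndufc1, Cox6c, Atp5g1 and Atp5j2. Cox4i1 was lower (1.14%, beside 13.3%). Limma-voom with the block also called 5 higher and 1 lower, beside 24.2% of all genes, and DESeq2 with the block called none. Across all 88 genes 60 had a positive log2 fold change (68.2%, beside 51.8% of all genes), which became 78 of 88 with upper-quartile scaling, where the median of all genes moved from 0.018 to 0.101, and 50 of 89 without un-diseased replicate 2. In 37 genes (42.0%, beside 30.7%) the diseased sample was the higher in all 3 pairs of like number, and in 6 (6.82%, beside 30.1%) it was the lower in all 3.

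Complex I, the largest of the complexes, had 25 of 37 subunit genes with a positive log2 fold change (33 with upper-quartile scaling) and a median of 0.08, and its summed level was 781 ± 60.0 CPM against 742 ± 60.5 CPM (SD, n = 3 each; here and below the diseased value stands first). The 7 core subunits, among them those with the flavin and iron-sulfur centres, had a median of 0.10, and the 30 accessory subunits one of 0.08. Ndufs8, a core subunit that binds iron-sulfur clusters, was at 15.3, 14.2 and 14.9 CPM in diseased and 12.2, 12.0 and 11.6 CPM in un-diseased samples. Its groups did not overlap, yet the difference of 0.31 ± 0.11 (log2, standard error, SE) did not pass (adjusted p = 0.132, edgeR; 0.0874 with the block). Groups without overlap were found for 10 of the 88 genes (11.4%), beside 31.9% of all genes.

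The accessory subunit Ndufc2 was at 20.5, 18.0 and 18.8 CPM in diseased and 16.8, 14.4 and 14.4 CPM in un-diseased samples, also without overlap, for a log2 fold change of 0.33 ± 0.12 (SE, adjusted p = 0.142, edgeR). Its neighbour in the membrane arm, Ndufc1, was at 7.53, 5.11 and 7.50 CPM against 4.85, 4.01 and 4.96 CPM, a log2 fold change of 0.55 ± 0.21 (SE, adjusted p = 0.151; 0.0489 with the block, edgeR). Both groups of Ndufc1 had their lowest value in replicate 2. Ndufa3, a small accessory subunit, had the highest log2 fold change of all 88 genes, 0.69 ± 0.26 (SE), from 8.17, 5.42 and 9.23 CPM in diseased and 6.05, 4.13 and 3.90 CPM in un-diseased samples. The lowest diseased sample of Ndufa3 lay below the highest un-diseased one, and the adjusted p was 0.146, or 0.0456 with the block (edgeR). Counts of Ndufb4 and of its copy Ndufb4c (log2 fold changes of -0.02 and 0.04) were fractional, so the split of reads between this pair is uncertain.

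The 8 complex I assembly factors, which help to build the complex and are not part of it, were the least abundant set, with a median of 3.16 CPM. None of their 8 intervals lay within -0.5 to 0.5. Ndufaf4 had the lowest log2 fold change of all 88 genes, -0.50 ± 0.28 (SE, adjusted p = 0.272, edgeR). Its values were 7.29, 5.67 and 7.23 CPM in diseased and 5.79, 11.3 and 11.5 CPM in un-diseased samples, so un-diseased replicate 1 sat with the diseased samples. With the block the log2 fold change of Ndufaf4 was -0.45 (adjusted p = 0.202, edgeR). Without replicate 1 the blocked value was -0.84 (adjusted p = 0.0232), without replicate 2 it was -0.18 (adjusted p = 0.654) and without replicate 3 it was -0.33 (adjusted p = 0.543). Ndufaf3 was at 3.54 ± 0.482 against 2.79 ± 0.236 CPM (adjusted p = 0.312, edgeR), and Ndufaf2, the one with the highest level per length of transcript, at 2.89 ± 0.166 against 3.41 ± 0.357 CPM (SD, n = 3 each).

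Complex II links the citric acid cycle to the chain and is built of 4 nuclear-encoded subunits. All 4 intervals lay between -0.5 and 0.5. Sdha, the flavoprotein that oxidises succinate, was at 102, 98.1 and 104 CPM against 91.8, 91.3 and 98.8 CPM, a log2 fold change of 0.11 ± 0.09 (SE, adjusted p = 0.452, edgeR). The membrane anchor Sdhc was at 33.9, 34.2 and 38.8 CPM against 31.3, 31.3 and 32.7 CPM, without overlap, at 0.17 ± 0.10 (SE, adjusted p = 0.286, edgeR). Sdhb, the iron-sulfur subunit, was at 26.6 ± 0.290 and 26.9 ± 3.24 CPM (SD, n = 3 each).

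Complex III had the smallest median of the complexes, 0.03. Its 4 core genes, Cyc1 for cytochrome c1, Uqcrfs1 for the Rieske iron-sulfur protein, Uqcrc1 and Uqcrc2, had log2 fold changes from -0.06 to -0.03, which became 0.02 to 0.06 with upper-quartile scaling, and its 5 accessory genes from 0.03 to 0.34. None of the 9 passed. The accessory gene Uqcr11 was at 11.1, 9.53 and 14.5 CPM in the diseased samples and at 9.23 ± 0.672 CPM in the un-diseased ones; diseased replicate 3 stood above the rest, and the log2 fold change was 0.34 ± 0.18 (SE, adjusted p = 0.253, edgeR). Uqcr10 was at 13.5, 12.1 and 14.7 CPM against 12.5, 9.64 and 13.0 CPM. Uqcrh, the hinge protein that assists the docking of cytochrome c, had the highest level per length in this complex, 67.2 CPM per kilobase, with a log2 fold change of 0.03 that turned to -0.05 with the block and without replicate 3.

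In complex IV the nuclear-encoded subunits differed in sign, with 7 of 13 tested genes above 0 and 6 below it (10 and 3 with upper-quartile scaling). Cox4i1, the common form of subunit IV, which takes part in the regulation of the enzyme by ATP, was at 118, 121 and 123 CPM in diseased and 147, 146 and 152 CPM in un-diseased samples. The groups did not overlap, which 31.9% of all genes share, and had means of 121 ± 2.52 and 148 ± 2.83 CPM (SD, n = 3 each). The log2 fold change of Cox4i1 was -0.30 ± 0.09 (SE; 95% interval -0.50 to -0.09), with an adjusted p of 0.102 in edgeR, 0.0456 in edgeR with the block and 0.0181 in DESeq2. With the block the adjusted p was 0.0466 in limma-voom but 0.0865 in DESeq2. Cox4i1 also did not pass in blocked edgeR with any 1 pair left out (adjusted p 0.0921 to 0.141). Upper-quartile scaling without the block gave -0.21 (adjusted p = 0.172, edgeR). Within the pairs of like number it was -0.32, -0.27 and -0.30. In the authors' deposited table Cox4i1 was the only one of the 93 genes with a q-value under 0.05, at 0.03, where the log2 of un-diseased to diseased was 0.31; there 1361 of 17419 genes were under that value. Cox4i1 lies at chr8:120668225-120674209 (GRCm38). Emc8, which begins beside it and is read in the opposite direction, was at 17.1 ± 1.91 and 16.5 ± 2.81 CPM (SD, n = 3 each).

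Cox6c, another nuclear subunit of complex IV, differed in the other direction. Its level was 53.1, 38.7 and 55.8 CPM in diseased and 38.0, 34.7 and 43.7 CPM in un-diseased samples, with the diseased sample higher in all 3 pairs and diseased replicate 2 within the un-diseased range. The log2 fold change of Cox6c was 0.34 ± 0.16 (SE), with an adjusted p of 0.207 in edgeR and 0.0471 with the block. Cox7a2l, a factor that joins complexes III and IV into supercomplexes, was at 61.7 ± 5.06 and 69.2 ± 6.37 CPM (SD, n = 3 each; adjusted p = 0.35, edgeR).

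Where a complex IV subunit has a common and a tissue-restricted isoform, the common one held nearly all of the RNA in both groups, except for the NDUFA4 type. Per length of transcript, Cox4i1 made up 99.6% ± 0.0596 against 99.7% ± 0.113 of the COX4 level (SD, n = 3 each), the rest being Cox4i2, the lung-type form. The forms typical of muscle and brown fat, Cox6a2, Cox7a1 and Cox8b, and the testis form Cox6b2 were not tested. Cox6a2 had a count of 1 in un-diseased replicate 1 and 0 in the other 5 samples, Cox8b had 1, 0 and 0 in diseased and 2, 1 and 1 in un-diseased samples, and Cox7a1 had 2, 0 and 7 against 5, 1 and 3. These sit at or near the level of 3 counts, worth 0.147 to 0.188 CPM, which a count of 0 still allows for counting error. Cox6b2 had counts of 10, 3 and 10 against 4, 3 and 3, and Cox4i2 9, 9 and 11 against 12, 8 and 5. The common forms Cox6a1, Cox7a2 and Cox8a had log2 fold changes of -0.05, -0.07 and -0.07, all of which took the other sign with upper-quartile scaling, and Cox6b1 and Cox7b had 0.20 and 0.22; none passed.

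Ndufa4l2, a form of NDUFA4 known as a target of hypoxia-inducible factor and as a pericyte marker, was expressed at a level near that of Ndufa4. It was at 36.5, 29.2 and 45.2 CPM in diseased and 34.3, 28.6 and 28.8 CPM in un-diseased samples; diseased replicate 3 was the highest, at a log2 fold change of 0.27 ± 0.17 (SE, adjusted p = 0.314, edgeR). Per length it held 48.3%, 47.5% and 50.5% of the NDUFA4 type in diseased and 49.8%, 48.3% and 43.8% in un-diseased samples. The log2 ratio of Ndufa4l2 to Ndufa4 differed by 0.09 between the groups (exact two-sided permutation p = 0.6, also 0.6 adjusted over the 3 ratios tested; the smallest that 3 against 3 samples allow is 0.1). The coding sequences of this pair are identical at 64.3% of aligned positions. Summed over the 9 measured pericyte markers, of which Ndufa4l2 is 1, the level was 231 to 286 CPM in diseased and 255 to 285 CPM in un-diseased samples.

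**Figure D2:**
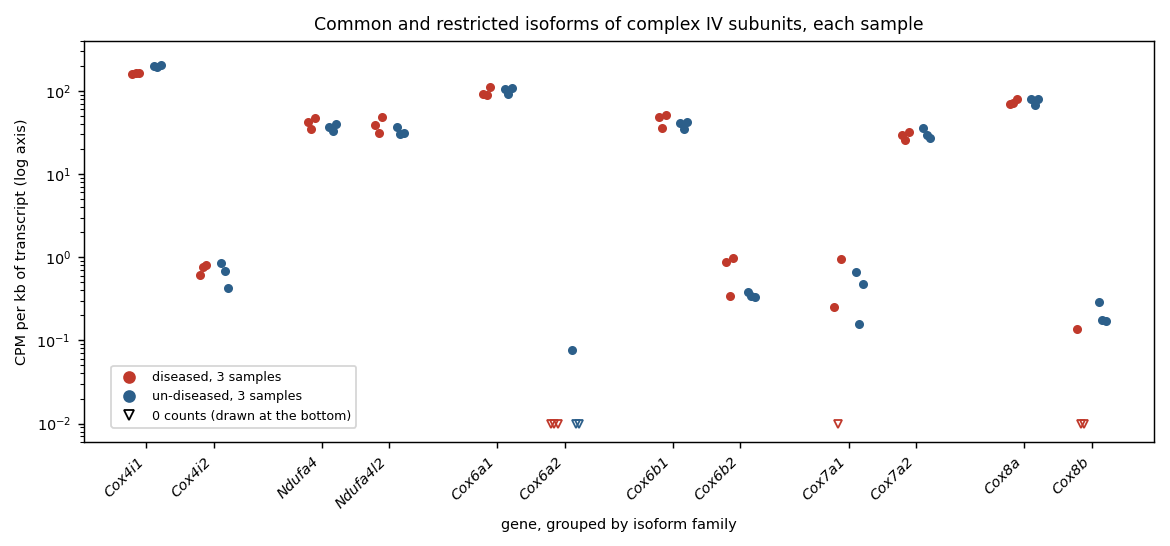
Level of each common and restricted isoform of complex IV subunits, in CPM per kilobase of transcript on a log axis, with a point for each of the 3 diseased and 3 un-diseased samples and open triangles for counts of 0. Ndufa4 and Ndufa4l2 stand at like levels, whereas Cox4i2, Cox6a2, Cox6b2, Cox7a1 and Cox8b lie far below Cox4i1, Cox6a1, Cox6b1, Cox7a2 and Cox8a.

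Complex V, the ATP synthase, had 15 of 17 genes with a positive log2 fold change (16 with upper-quartile scaling) and a median of 0.10; its summed level was 1286 ± 36.6 against 1239 ± 58.4 CPM (SD, n = 3 each). Atp5b, the catalytic beta subunit, had the highest level per length of all 93 genes, 195 CPM per kilobase. It was at 339, 402 and 351 CPM in diseased and 370, 382 and 394 CPM in un-diseased samples, overlapping, at -0.07 ± 0.12 (SE, adjusted p = 0.73, edgeR), and reached 0.01 with upper-quartile scaling. The 5 genes of the F1 head had a median log2 fold change of 0.07, the 4 of the peripheral stalk 0.14, the 5 small membrane subunits 0.21 and the 3 of the c ring 0.34. Atp5j2, a small membrane subunit, was at 30.1, 24.1 and 32.1 CPM against 24.7, 18.7 and 25.0 CPM, at 0.34 ± 0.16 (SE, adjusted p = 0.212; 0.0403 with the block, edgeR).

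The c ring is the rotor of the enzyme, and Atp5g1, Atp5g2 and Atp5g3 encode the same mature protein behind different import sequences. Atp5g1 was at 25.7, 23.6 and 28.7 CPM in diseased and 18.9, 16.8 and 22.4 CPM in un-diseased samples, without overlap and higher in each pair (0.45, 0.49 and 0.35). Its log2 fold change was 0.43 ± 0.14 (SE; 95% interval 0.10 to 0.75), with an adjusted p of 0.116 in edgeR and 0.0209 with the block, the smallest of the 88 genes there. Atp5g2 was at 38.5, 35.1 and 46.1 CPM against 35.8, 28.3 and 30.7 CPM, at 0.34 ± 0.14 (SE, adjusted p = 0.168; 0.0678 with the block, edgeR). In Atp5g2 diseased replicate 2 lay just below the highest un-diseased sample. Atp5g3 was at 63.4, 65.6 and 65.8 CPM against 63.4, 55.0 and 67.4 CPM, at 0.07 ± 0.10 (SE, adjusted p = 0.683, edgeR). The log2 ratio of Atp5g1 to Atp5g3 was -1.33 ± 0.14 against -1.68 ± 0.08 (SD, n = 3 each), higher in every diseased sample than in any un-diseased one (exact two-sided permutation p = 0.1, the smallest possible here, and 0.3 adjusted over the 3 ratios). That of Atp5g2 to Atp5g3 differed by 0.26 (exact two-sided permutation p = 0.2, adjusted 0.3).

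The promoters of the 3 c-ring genes are shown because the 3 encode 1 mature protein. None of the 3 passed in edgeR without the block, and the part of these sequences in the RNA values was not tested. Each is the 250 bases before the start site in RefSeq (GRCm38.p6, minus strand), 5′ to 3′, with capitals for matches to CCAAT and to the NRF1 core GCATGCGC, on either strand. For Atp5g1 and Atp5g3 the window lies partly or wholly within the annotated span of the gene, which has an earlier start.
Atp5g1, chr11:96075632-96075881: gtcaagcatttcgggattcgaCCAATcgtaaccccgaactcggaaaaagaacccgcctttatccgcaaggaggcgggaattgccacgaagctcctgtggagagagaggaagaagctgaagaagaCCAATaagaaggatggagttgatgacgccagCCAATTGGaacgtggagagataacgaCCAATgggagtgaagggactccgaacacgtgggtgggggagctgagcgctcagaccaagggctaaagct
Atp5g2, chr15:102671048-102671297: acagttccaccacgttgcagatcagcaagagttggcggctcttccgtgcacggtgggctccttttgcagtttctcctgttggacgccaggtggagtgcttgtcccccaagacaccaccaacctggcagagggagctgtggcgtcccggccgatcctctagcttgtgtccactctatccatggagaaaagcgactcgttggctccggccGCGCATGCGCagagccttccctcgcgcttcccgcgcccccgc
Atp5g3, chr2:73911327-73911576: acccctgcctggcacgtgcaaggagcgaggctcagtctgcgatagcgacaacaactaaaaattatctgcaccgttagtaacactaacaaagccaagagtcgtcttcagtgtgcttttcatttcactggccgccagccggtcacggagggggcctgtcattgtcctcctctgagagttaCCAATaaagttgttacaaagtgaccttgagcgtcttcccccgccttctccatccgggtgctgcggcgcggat
The Atp5g1 window holds 5 matches to CCAAT, 2 of them overlapping on opposite strands, and none to the NRF1 core. That of Atp5g2 holds 2 overlapping matches to the NRF1 core and none to CCAAT, and that of Atp5g3 1 match to CCAAT. All 3 windows also hold matches to ACGTG, a string described below, which are not in capitals. A match is a string of letters and not a bound site.

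Promoters were in the RefSeq table for 75 of the 93 genes. NRF1, GABP (an ETS factor) and YY1 are textbook regulators of nuclear genes for respiration. The NRF1 core was in 9 of 75 (12.0%), beside 4.87% of the 10475 tested genes with a promoter and 2.56% of all 27025 promoters. The ETS string CCGGAAG was in 14 (18.7%, beside 15.0% and 7.83%), the YY1 string AANATGGC in 7 (9.33%, beside 4.95% and 4.49%), CCAAT in 33 (44.0%, beside 40.6% and 37.5%), and ACGTG, the core of the hypoxia response element, in 15 (20.0%, beside 24.9% and 18.5%). All strings were searched on both strands of the same 250 bases, and the members are described without a test.

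Samples differed in the level of the whole set, and in replicate 2 of both groups and diseased replicate 3 the genes with short transcripts deviated furthest. The median deviation of the 88 genes from their own mean over the 6 samples was 0.09, -0.11 and 0.16 log2 units in diseased replicates 1, 2 and 3 against 0.03, -0.18 and 0.01 in un-diseased replicates 1, 2 and 3, so that replicate 2 was low in both groups. Replicate 2 also had the highest summed macrophage markers of each group, as given above, and the highest neutrophil markers, at 228 and 243 CPM; their part in these deviations was not tested. Over the 87 tested genes with a transcript length, Pearson's r between log length and the deviation from the group mean was 0.55 in diseased replicate 2 and -0.53 in diseased replicate 3, beside 0.15 and -0.14 over 13034 genes; genes of 1 sample share its library and are not replicates. In un-diseased replicate 2 it was 0.43, beside 0.06. In diseased replicate 1 and un-diseased replicates 1 and 3 it was -0.24, -0.32 and -0.03, beside -0.05, -0.13 and 0.08. Between log length and the log2 fold change itself, r was -0.3, beside -0.12. The 54 genes with transcripts under 1000 bases had a median log2 fold change of 0.14 and the 33 longer ones 0.07; all 810 tested genes under 1000 bases also had 0.14, and the 12224 longer ones 0.01. By the shortest principal transcript, Ndufa3, Ndufc1, Cox6c, Atp5g1, Atp5j2 and Cox4i1 are all under 1000 bases, though Atp5g1 also has a transcript of 4715 bases. The part of length in the values of these genes was not tested.

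**Figure D3:**
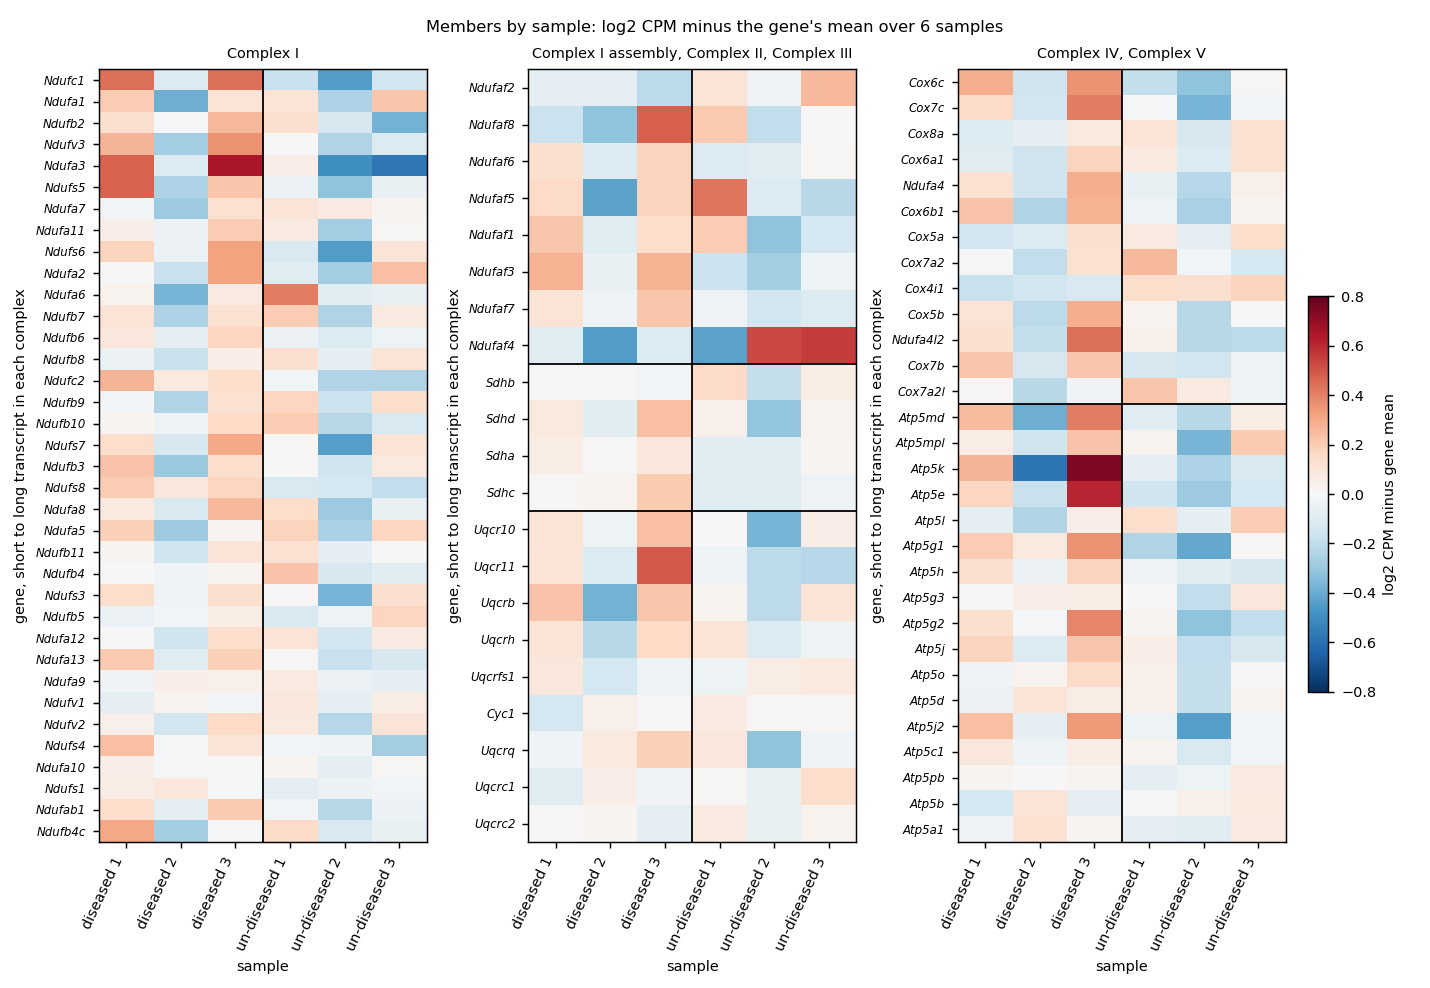
Log2 CPM of 87 of the 88 tested genes minus each gene's mean over the 6 samples (colour, from -0.8 in blue to 0.8 in red), with genes ordered from short to long transcript within each complex and samples in columns. Diseased and un-diseased replicate 2 are mostly blue and diseased replicate 3 mostly red, while Cox4i1 is blue in the 3 diseased and red in the 3 un-diseased samples.

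**Figure D4:**
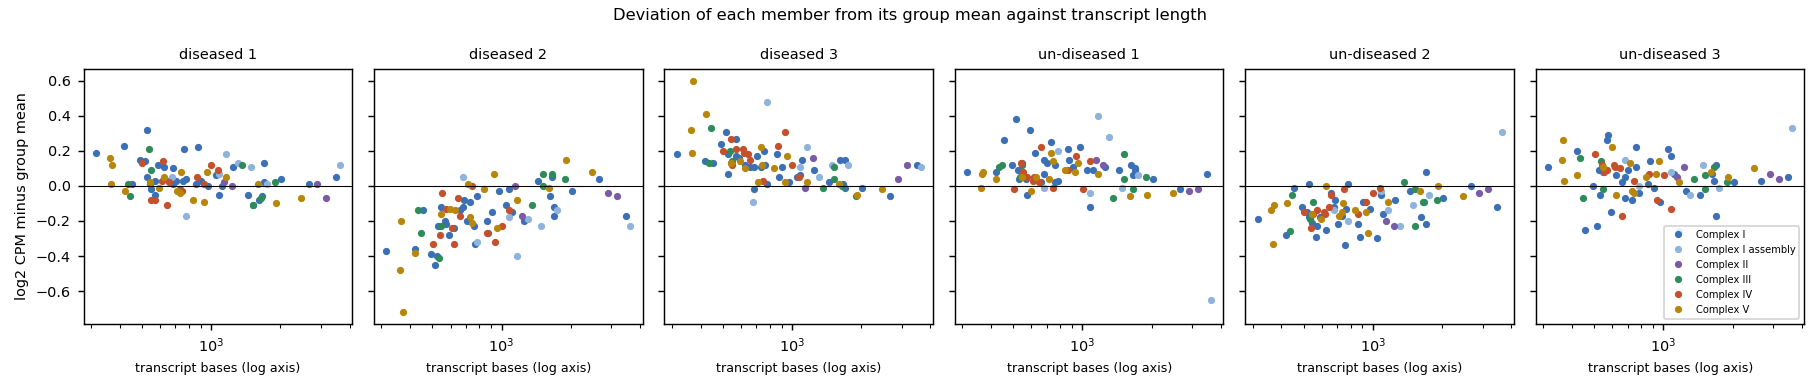
Deviation of each gene's log2 CPM from its group mean (y axis) against transcript length in bases (log axis), 1 panel for each sample, coloured by complex, for the 87 tested genes with a length. Short transcripts lie low in diseased replicate 2 and un-diseased replicate 2 and high in diseased replicate 3.

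Other genes of mitochondrial respiration were described from written lists. Of 47 tested assembly factors of complexes I to V outside the symbol rule, 1 passed higher and 0 lower, beside 1.61% and 2.13% of all genes. Of the 47, 38 had a positive log2 fold change (median 0.27), beside 51.8% of all genes (median 0.02). With the block 6 passed higher and 0 lower, beside 10.5% and 13.3% of all genes, so the count of higher calls is near the background. The 1 was Coa3, an assembly factor of complex IV, at 10.4, 8.9 and 12.5 CPM in diseased and 6.31, 4.07 and 4.90 CPM in un-diseased samples. Coa3 rose by 1.05 ± 0.21 on the log2 scale (SE, adjusted p = 0.0434, edgeR; 0.00529 with the block), with no overlap. That call was lost without any 1 of diseased replicates 1, 2 and 3 and un-diseased replicates 2 and 3 (adjusted p 0.0531 to 0.179).

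Of 17 tested genes for cytochrome c, coenzyme Q and the electron transfer flavoprotein with its dehydrogenase, 0 passed higher and 1 lower, beside 1.61% and 2.13% of all genes. With the block 1 passed higher and 1 lower, beside 10.5% and 13.3% of all genes. Coq10b, a coenzyme Q binding protein, was at 71.0, 77.6 and 73.1 CPM in diseased and 112, 115 and 122 CPM in un-diseased samples and fell by 0.66 on the log2 scale (SE 0.09, adjusted p = 0.0254, edgeR). The call of Coq10b was lost without diseased replicate 1 or 3 or un-diseased replicate 2 or 3 (adjusted p 0.0548 to 0.128). Among 10 tested genes for inner-membrane carriers, an uncoupling protein and the outer-membrane channels Vdac1, Vdac2 and Vdac3, 1 passed higher and 0 lower, beside the same 1.61% and 2.13%. In the blocked fit 2 of the 10 passed higher and 0 lower, beside 10.5% and 13.3%. Ucp2, an uncoupling protein family member that is abundant in macrophages and other immune cells, was at 112, 131 and 148 CPM in diseased and 57.0, 52.7 and 65.9 CPM in un-diseased samples and rose by 1.15 ± 0.14 on the log2 scale (SE, adjusted p = 0.0247, edgeR). Its call was lost without diseased replicate 3 or un-diseased replicate 2 or 3 (adjusted p 0.051 to 0.116). The macrophage marker sums are given above, and their part in the value of Ucp2 was not tested.

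None of 15 tested regulators of mitochondrial biogenesis passed (median -0.07, range -1.11 to 0.67), beside 3.73% of all genes, a count near the background in so short a list. With the block 0 passed higher and 3 lower (beside 10.5% and 13.3% of all genes), Nrf1, Pprc1 and Gabpb1, which are named after their values were seen. Pprc1 and Gabpb1 had log2 fold changes of -0.72 and -0.55 (adjusted p = 0.143 and 0.181, edgeR, and 0.00323 and 0.00642 with the block). Ppargc1a, also named after its values were seen, had the lowest, -1.11 (adjusted p = 0.235, edgeR). It was at 1.61, 1.74 and 1.24 CPM in diseased and 0.99, 3.44 and 5.58 CPM in un-diseased samples. Nrf1, the factor of the promoter string above, was at 17.8, 18.5 and 17.2 CPM in diseased and 23.7, 22.8 and 22.2 CPM in un-diseased samples (adjusted p = 0.0818, edgeR; 0.0391 with the block). The most abundant of the list, Yy1, was at 80.8 ± 2.34 and 84.5 ± 3.57 CPM. None of 17 genes of the citric acid cycle and of the pyruvate dehydrogenase complex that feeds it passed (median 0.03). This held without the block, beside 3.73% of all genes, and with it, beside 23.9%. In so short a list the count without the block is near the background. Pdha1, a subunit of pyruvate dehydrogenase, was at 126 ± 4.45 and 143 ± 12.4 CPM (SD, n = 3 each). Of 78 mitochondrial ribosomal protein genes none passed (median 0.18), beside 3.73% of all genes. With the block 7 of the 78 passed higher and 1 lower, beside 10.5% and 13.3% of all genes, so the count of higher calls is near the background.

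**Figure D5:**
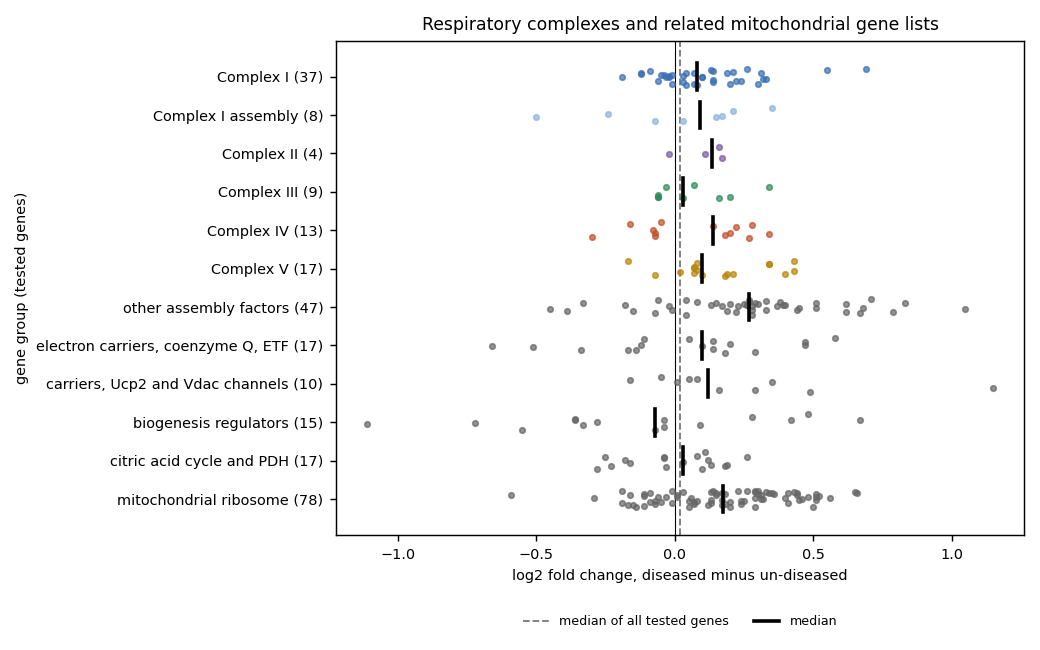
Log2 fold change (x axis, diseased minus un-diseased) of each tested gene in the 6 groups of respiratory genes and in 6 related lists, with the number tested in brackets, the median as a black bar and the median of all tested genes (0.02) as a dashed line. The medians of the respiratory groups lie between 0.03 and 0.14, and that of the other assembly factors is 0.27.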

How the data were processed

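The authors deposited estimated counts of 17419 genes in 6 samples. GRCm38, RSEM 1.3.1, HISAT2 2.0.4 and DESeq2 1.4.5 are named in the submitters' processing notes, without role or order. The log2 ratio and the p-value and q-value columns of the authors' deposited table served for comparison only. Of the estimated counts 9.6% were not whole (tolerance 1e-09), and all were rounded. Genes were filtered with filterByExpr (minimum count 10), scaled by TMM and tested with the quasi-likelihood test of edgeR 4.0.16 (R 4.3.3) without a block, adjusted over 13264 genes by the Benjamini-Hochberg method; SE is the log2 fold change over the root of F. CPM is the count scaled by the TMM library size. DESeq2 1.42.0, limma-voom (limma 3.58.1), other scalings and filters, a replicate block and leaving out samples were alternatives. The steps were tested on simulated data.

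Deviations from the group means correlated at 0.487, 0.578 and 0.276 (Pearson, 13264 genes) between samples numbered 1, 2 and 3. Between unlike numbers the values ran from -0.531 to 0.137, the highest for diseased replicate 3 with un-diseased replicate 1. Deviations within a group cancel, which lowers the values of unlike numbers. The numbers in the labels were taken to pair the samples on these same data, and the labels do not say what a number stands for. Within a group, every pair of samples differed beyond counting noise (chi-square per gene 24.2 to 58.5). Positions and promoters come from RefSeq (93 and 75 of the 93 genes matched), and lengths from the shortest principal transcript of a GRCm38 annotation. Genes named are, per complex, the 2 smallest p, the highest level per length and the complex IV isoforms, and per other list the called members or the most abundant. Members and lists were chosen with earlier results of these data known. The values of 1 gene are not reported here.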

Additional observations from a re-analysis of the deposited data

How the results depend on the processing

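Without the block, 0 of the tested genes were called higher and 0 lower under the other scalings, filters and the threshold of 0.01, with limma-voom and without each sample, and DESeq2 called 0 higher and 1 lower. The replicate block gave 5 higher and 1 lower. The block with a pair left out gave 1 higher and 1 lower without replicate 1, 2 higher without replicate 2 and 0 higher and 0 lower without replicate 3, so a range of 0 to 2 higher and 0 to 1 lower. The share of all genes called is not given for the fits with a pair left out. Nor is it given for the unblocked alternatives apart from DESeq2. Those counts are therefore no result about these genes in particular. Limma-voom with the block, chosen after seeing the data, gave 5 and 1, and DESeq2 with the block, also chosen then, 0 and 0; the cause of these moves was not tested. The median log2 fold change stayed within 0.026 (without un-diseased replicate 2) and 0.172 (upper-quartile factors), against 0.164 for the SD of the samples' medians. Over 29 named genes, 508 of 551 alternative values kept their direction and side of the threshold, 16 passed where the reported value did not, 15 were lost and 12 took the other sign. Only a gene that passed in the reported fit could be lost, so the 15 all belong to Coa3, Coq10b and Ucp2. The 508 mostly describe genes that did not pass and do not measure how firm those calls are. The 12 values of the other sign were all small. With upper-quartile factors they were Atp5b at 0.01, Cox6a1 at 0.03, Cox7a2 at 0.02 and Cox8a at 0.01. Leaving out 1 sample, Uqcrh lay between -0.03 (diseased replicate 3) and 0.14 and was -0.01 when either diseased replicate 1 or un-diseased replicate 2 was left out. Cox6a1 lay between -0.16 and 0.01 (diseased replicate 2). Cox7a2 lay between -0.15 and 0.05 (un-diseased replicate 1), with 0.02 when diseased replicate 2 was left out. The block gave Uqcrh -0.05 without replicate 3 and Cox7a2 0.03 without replicate 1. The 3 samples a group limit the precision, and genes of a few CPM, such as the complex I assembly factors, had the widest intervals.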
